A study of Mus musculus with 57 samples.

Results

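The tumor necrosis factor (TNF) superfamily was followed across the colon of mice with and without the insulin receptor in the intestinal epithelium. Members were the genes with a single symbol on the array whose symbol is Tnfsf or Tnfrsf with a number, together with Tnf, Lta, Ltb, Ltbr, Fas, Fasl, Cd27, Cd40, Cd40lg, Cd70, Eda and Edar. This gave 41 of the 22180 genes measured, 16 ligands and 25 receptors. A further 2 symbols, Tnfsf12 and Tnfsf13, lay only on probe sets shared with other genes and were not used. Each member had 1 probe set, and 6 of the 41 (Cd40lg, Cd70, Fasl, Tnfsf18, Tnfsf4 and Tnfsf8) lay in the lowest 25% of genes by mean level, below 5.008 on the log2 scale, where changes on such arrays are compressed. Tnfrsf22, Tnfrsf23 and Tnfrsf26 are related neighbouring genes whose probe sets may pick up each other's RNA, so the split of signal between them is uncertain.

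The animals were C57BL/6 mice of 18 to 24 weeks, and the treatment protocol names females. INSRfl/fl littermates, which carry a floxed insulin receptor gene, were compared with villin-CRE-INSR-/- mice, in which the villin promoter drives Cre in the intestinal epithelium and leaves the receptor gene of immune, stromal and muscle cells in place. They are called fl/fl and knockout here. There were 10 fl/fl and 10 knockout samples of untreated distal colon. Colon of treated mice (10 and 10) and colon tumors (8 fl/fl and 9 knockout) followed 7.4 mg/kg of the carcinogen azoxymethane (AOM) and 7 days of 3% dextran sulfate sodium (DSS), which injures the epithelium, with tissue taken in week 5. The labels do not tie a tumor to the colon of the same mouse. Whole tissue was measured, so fewer cells of a type and less RNA per cell cannot be told apart.

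Ligands of the TNF superfamily are mostly trimers, held on the cell surface or shed from it, and their receptors recruit adaptor proteins of the TRAF family or death domain proteins. TRAF-binding receptors activate NF-kappaB and kinase cascades, whereas death receptors such as Fas can trigger caspases. In the intestine, TNF is a central inflammatory cytokine, lymphotoxin builds lymphoid tissue, BAFF keeps B cells alive, and several members costimulate T cells.

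Upstream sequence is shown for members that ranked among the first 3 by rise or by fall in a comparison and whose 250 bases before an annotated start held a searched motif. Capitals mark the motif, on either strand, in the RefSeq promoter table of GRCm38.p6. The motifs were the NF-kappaB consensus of 10 letters, CTTTGAT, which is the site of the Wnt pathway's TCF factors, and TGANTCA, the site of AP-1. The first sequence is that of Tnfrsf8 (CD30) at chr4:145315165-145315414 on the minus strand, with the NF-kappaB consensus at bases -168 to -159 from the start and TGANTCA at -132 to -126. The second is that of Ltb (lymphotoxin beta) at chr17:35194257-35194506 on the plus strand, with the NF-kappaB consensus at -87 to -78. The third is upstream of the downstream start of Tnfrsf19 (TROY) at chr14:61037988-61038237 on the minus strand, with CTTTGAT on the opposite strand at -202 to -196. The last lies upstream of the downstream start of Tnfsf13b (BAFF) at chr8:10006383-10006632 on the plus strand, with TGANTCA at -127 to -121.
Tnfrsf8: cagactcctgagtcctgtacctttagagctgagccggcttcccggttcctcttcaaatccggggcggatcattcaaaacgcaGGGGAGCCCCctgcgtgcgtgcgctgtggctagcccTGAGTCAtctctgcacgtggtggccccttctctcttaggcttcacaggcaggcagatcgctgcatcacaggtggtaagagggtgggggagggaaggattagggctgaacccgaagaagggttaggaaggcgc
Ltb: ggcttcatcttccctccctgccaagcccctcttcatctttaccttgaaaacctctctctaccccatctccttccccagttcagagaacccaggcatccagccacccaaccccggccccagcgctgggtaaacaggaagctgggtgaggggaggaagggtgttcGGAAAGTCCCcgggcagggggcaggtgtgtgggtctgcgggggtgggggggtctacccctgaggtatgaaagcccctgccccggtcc
Tnfrsf19: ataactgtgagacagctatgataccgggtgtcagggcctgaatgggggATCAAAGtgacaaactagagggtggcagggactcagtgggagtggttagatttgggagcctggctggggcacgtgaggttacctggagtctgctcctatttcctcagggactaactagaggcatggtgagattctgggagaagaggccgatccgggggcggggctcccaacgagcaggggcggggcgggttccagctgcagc
Tnfsf13b: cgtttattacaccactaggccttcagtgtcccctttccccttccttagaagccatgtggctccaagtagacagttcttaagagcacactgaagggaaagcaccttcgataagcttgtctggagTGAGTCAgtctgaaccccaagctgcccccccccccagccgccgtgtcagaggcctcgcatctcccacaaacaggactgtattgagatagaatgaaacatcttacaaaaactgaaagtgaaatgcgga
The promoter table held 32 of the 41 members. The NF-kappaB consensus was found in 3 of the 32 (9.38%; Ltb, Tnfrsf8 and Tnfrsf9) and in 4.86% of 16990 genes. CTTTGAT was found in 3 (9.38%; Edar, Tnfrsf19 and Tnfrsf9) and in 3.38% of genes. TGANTCA was found in 5 (15.6%; Fas, Tnfrsf8, Tnfrsf9, Tnfsf13b and Tnfsf14) and in 7.44% of genes. A match describes letters in this window and does not show that a factor binds there.

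The deleted gene, Insr, had less signal in the knockout groups under each condition. Its mean log2 level was 8.04 ± 0.16 against 8.98 ± 0.16 (SD, n = 10 each) in untreated colon, 7.74 ± 0.16 against 8.58 ± 0.22 (n = 10 each) in treated colon and 7.53 ± 0.36 (n = 9) against 8.18 ± 0.23 (n = 8) in tumors, where 2 knockout samples lay above the lowest fl/fl sample. Markers of the colon epithelium, B cells, T cells, macrophages, neutrophils, fibroblasts and smooth muscle were all measured, with the epithelial list between 11.25 and 11.57 on average in the 6 groups. Some arrays stood apart. The fl/fl treated colon of replicate 4 was the highest of its group in 17 of the 41 members and had the highest B cell list mean (8.58). The fl/fl tumor of replicate 3 had a B cell list mean of 7.67, against 5.59 to 6.02 in the other fl/fl tumors. The untreated knockout colon of replicate 2 had the lowest mean correlation with its group (0.98148). Member calls lost when 1 of these arrays was left out are given beside the result. Markers of keratinized squamous epithelium also varied widely within groups, from 5.43 to 9.71 in treated knockout colon, and a fit with that list's mean as a covariate is given beside the member calls it ended.

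Treated colon carried higher levels of many family members than untreated colon, and tumors split the family into members that were higher and members that were lower than in treated colon. Changes are log2 differences ± SE, tested with limma and adjusted over 22180 genes, and a member rose or fell where the adjusted p was under 0.05. In fl/fl mice, 14 of the 41 members rose and 2 fell after AOM+DSS (34.1% and 4.88%), against 12.2% and 10.5% of all genes (22.7% in either direction). The treated and untreated samples did not overlap for 4 members, and for 1.06% of all genes. In knockout mice, 21 rose and 1 fell, against 16% and 14.2% of all genes (30.2% in either direction), and 7 members did not overlap, against 4.74% of all genes. The median change over the 41 members was 0.19 in fl/fl and 0.29 in knockout colon, and over all genes it was -0.039 and -0.04. These all-gene shares depend on the scaling. With every array shifted to 1 median, 36.1% and 41.9% of the genes called were higher, in place of 53.8% and 52.9%, and a further quantile normalization gave 43% for fl/fl colon.

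In tumors against treated colon, 15 members rose and 12 fell in fl/fl mice, against 21% and 20.2% of all genes (41.2% in either direction), and 10 members did not overlap, against 12% of all genes. In knockout mice, 13 rose and 16 fell, against 21.5% and 21.4% (42.9%), and 13 did not overlap, against 14.7%. The median change over the members was 0.02 and -0.08, close to the 0.018 and 0.002 of all genes. The treated colon arrays enter both this comparison and the one with untreated colon, so a gene that is high in them tends to show a rise in one and a fall in the other. The fl/fl and knockout comparisons share no arrays. All 14 members that rose in treated fl/fl colon also rose in knockout colon, which is 66.7% of the 21 that rose there, and all 12 that fell in fl/fl tumors also fell in knockout tumors, which is 75% of 16. Of the 15 that rose in fl/fl tumors, 13 (86.7%) were all those that rose in knockout tumors. Cd40lg, Cd70, Edar, Fasl and Ltbr passed in none of these 4 comparisons.

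**Figure D1:**
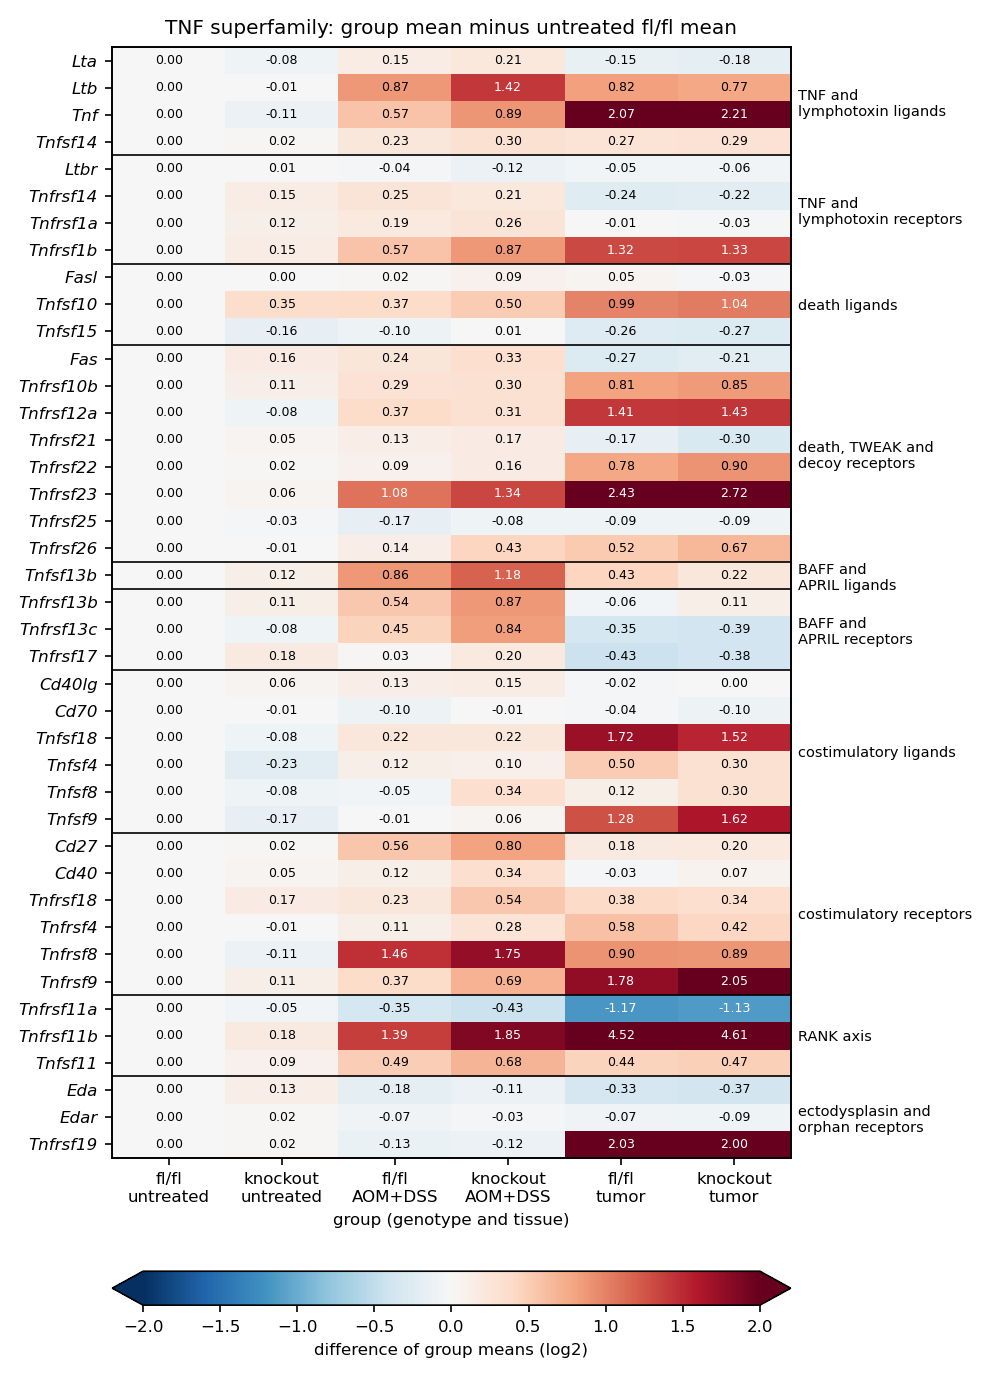
Mean log2 level of each of the 41 members in the 6 groups minus its mean in untreated fl/fl colon, with members ordered by role and a colour scale that ends at 2 above and below. Tnfrsf11b, Tnfrsf23 and Tnf stand highest above untreated fl/fl colon in tumors, and Tnfrsf11a and Tnfrsf13c are among those lower there than in treated colon.

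TNF and the lymphotoxins are the ligands of TNFR1 (Tnfrsf1a), TNFR2 (Tnfrsf1b), the lymphotoxin beta receptor (Ltbr) and HVEM (Tnfrsf14). Of the 4 ligands, 2 rose after AOM+DSS in fl/fl and 4 in knockout colon, and of the 4 receptors Tnfrsf1b rose in both. Of all genes, 12.2% and 16% rose there. Tnf, the inflammatory cytokine that names the family, had a lowest, median and highest level of 6.51, 7.08 and 7.45 in untreated fl/fl, 6.56, 6.86 and 7.92 in untreated knockout, 7.28, 7.59 and 8.04 in treated fl/fl and 7.30, 7.98 and 8.55 in treated knockout colon. In tumors it was 8.59, 9.12 and 9.68 in fl/fl and 9.00, 9.28 and 9.62 in knockout mice. Every tumor lay above every treated colon of its genotype, and the untreated and treated groups overlapped. Tnf rose after AOM+DSS by 0.58 ± 0.14 (1.49-fold, adjusted p = 0.00209) in fl/fl and 1.01 ± 0.14 (2.01-fold, adjusted p = 1.1e-07) in knockout colon. It was higher again in tumors, by 1.50 ± 0.15 (2.82-fold, adjusted p = 1.49e-12) and 1.31 ± 0.15 (2.48-fold, adjusted p = 3.29e-11).

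Ltb, the membrane anchor of the lymphotoxin heterotrimer, followed another course and was not further raised in tumors. Its lowest, median and highest levels were 6.30, 6.86 and 7.61 in untreated fl/fl and 6.48, 6.85 and 7.68 in untreated knockout colon. They were 7.33, 7.71 and 8.71 in treated fl/fl, 8.02, 8.34 and 8.74 in treated knockout colon, 7.25, 7.76 and 8.67 in fl/fl tumors and 7.39, 7.65 and 8.15 in knockout tumors. All 10 treated knockout colons lay above all untreated ones, and 8 of 9 knockout tumors lay below all treated knockout colons. Ltb rose after AOM+DSS by 0.87 ± 0.16 (adjusted p = 5.59e-05) in fl/fl and 1.43 ± 0.16 (adjusted p = 4.29e-10) in knockout colon. The change in tumors was -0.052 ± 0.17 (adjusted p = 0.845) in fl/fl and -0.65 ± 0.16 (adjusted p = 0.000787) in knockout mice. Lta, the soluble lymphotoxin subunit, changed by 0.15 ± 0.088 (adjusted p = 0.228) and rose by 0.29 ± 0.088 (adjusted p = 0.00797) after AOM+DSS. In tumors its change was -0.29 ± 0.093 (adjusted p = 0.00772) and -0.39 ± 0.09 (adjusted p = 0.000212), a fall in both genotypes. Tnfsf14 (LIGHT), a ligand of HVEM, passed only in treated knockout colon among these 4 comparisons, at 0.28 ± 0.11 (adjusted p = 0.0368), and missed the threshold with the squamous list as a covariate (adjusted p = 0.0781) or each array shifted to 1 median (adjusted p = 0.0604).

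Among the receptors, Tnfrsf1b rose in treated colon and again in tumors. Its lowest, median and highest levels were 8.11, 8.43 and 8.63 in untreated fl/fl, 8.39, 8.53 and 8.87 in untreated knockout, 8.70, 8.98 and 9.26 in treated fl/fl and 8.95, 9.21 and 9.74 in treated knockout colon. In tumors they were 9.38, 9.76 and 10.03 in fl/fl and 9.26, 9.71 and 10.33 in knockout mice. The fl/fl groups did not overlap at either step. Tnfrsf1b rose by 0.57 ± 0.095 (1.49-fold, adjusted p = 7.89e-06) and 0.72 ± 0.095 (1.65-fold, adjusted p = 2.08e-08) after AOM+DSS, and by 0.75 ± 0.10 (1.68-fold, adjusted p = 7.08e-09) and 0.46 ± 0.10 (1.38-fold, adjusted p = 6.62e-05) in tumors. Tnfrsf1a, the death domain receptor of TNF, fell in tumors, with changes of -0.20 ± 0.081 (adjusted p = 0.0437) in fl/fl and -0.29 ± 0.078 (adjusted p = 0.0017) in knockout mice. The fl/fl call was lost without the fl/fl treated colon of replicate 4 (adjusted p = 0.106) or the fl/fl tumor of replicate 3 (adjusted p = 0.0673), with the squamous list as a covariate (adjusted p = 0.0898), after a shift of each array to 1 median (adjusted p = 0.0588) or a further quantile normalization (adjusted p = 0.0648), and on the compared groups alone (adjusted p = 0.0559). Tnfrsf14 fell in tumors too, at -0.49 ± 0.11 (adjusted p = 0.000122) and -0.43 ± 0.10 (adjusted p = 0.000418). Ltbr, the receptor of the lymphotoxin heterotrimer, had group means from 9.10 to 9.23, and no change passed in these 4 comparisons.

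**Figure D2:**
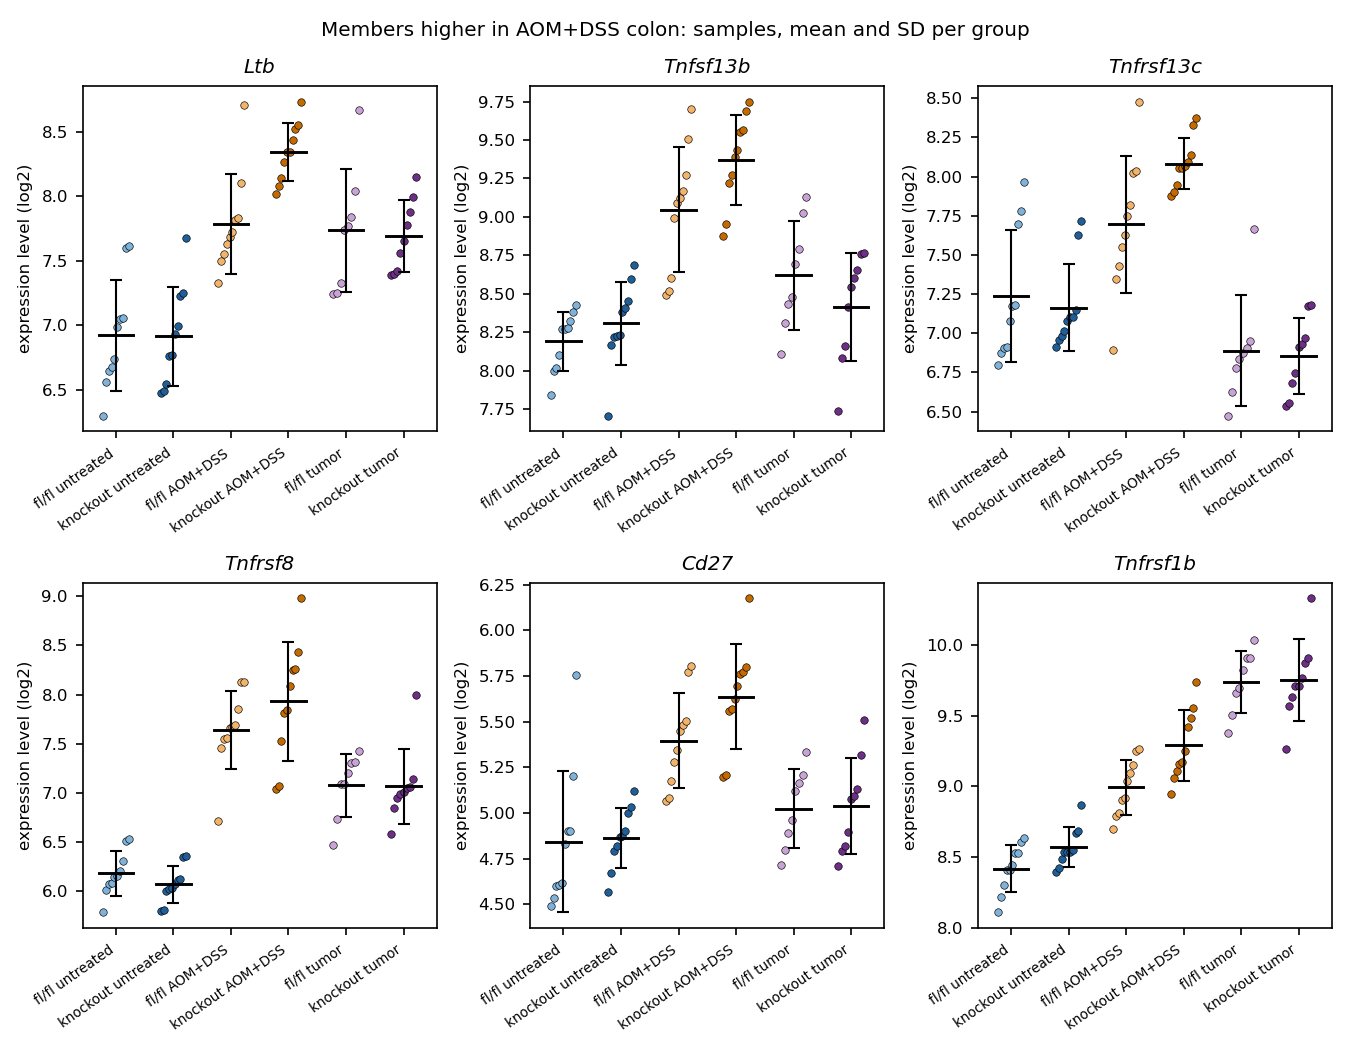
Log2 level per sample for Ltb, Tnfsf13b, Tnfrsf13c, Tnfrsf8, Cd27 and Tnfrsf1b in the 6 groups, points sorted by value, with the mean and SD of each group. Tnfrsf8 and Tnfsf13b lie higher in every treated colon than in every untreated colon of the same genotype, and Tnfrsf13c lies low in tumors.

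BAFF (Tnfsf13b) and 2 of its 3 receptors rose in treated colon of both genotypes, and BAFF and all 3 receptors fell in tumors. BAFF binds BAFF receptor (Tnfrsf13c), TACI (Tnfrsf13b) and, weakly, BCMA (Tnfrsf17), which are found on B cells and plasma cells. Tnfsf13b had a lowest, median and highest level of 7.84, 8.27 and 8.43 in untreated fl/fl, 7.71, 8.31 and 8.69 in untreated knockout, 8.49, 9.11 and 9.70 in treated fl/fl and 8.88, 9.41 and 9.75 in treated knockout colon. Tumors gave 8.11, 8.58 and 9.13 in fl/fl and 7.74, 8.54 and 8.77 in knockout mice. Treated and untreated colon did not overlap in either genotype, and knockout tumors lay below all treated knockout colons. It rose by 0.86 ± 0.14 (1.81-fold, adjusted p = 5.08e-06) and 1.06 ± 0.14 (2.09-fold, adjusted p = 1.51e-08) after AOM+DSS. In tumors the change was -0.43 ± 0.15 (adjusted p = 0.0144) in fl/fl, which missed the threshold with the squamous list as a covariate (adjusted p = 0.057), and -0.96 ± 0.14 (adjusted p = 6.94e-08) in knockout mice.

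Tnfrsf13c had a lowest, median and highest level of 6.80, 7.13 and 7.96 in untreated fl/fl, 6.91, 7.09 and 7.72 in untreated knockout, 6.89, 7.69 and 8.48 in treated fl/fl and 7.87, 8.06 and 8.37 in treated knockout colon. Its levels in tumors were 6.47, 6.85 and 7.67 in fl/fl and 6.53, 6.91 and 7.18 in knockout mice. The knockout groups were separated at each step, whereas the fl/fl groups overlapped. Tnfrsf13c rose by 0.46 ± 0.14 (adjusted p = 0.016) in fl/fl and 0.92 ± 0.14 (1.89-fold, adjusted p = 9.67e-07) in knockout colon, and its change in tumors was -0.81 ± 0.15 (adjusted p = 1.25e-05) and -1.23 ± 0.15 (adjusted p = 3.26e-10). Tnfrsf13b rose by 0.54 ± 0.19 (adjusted p = 0.0316) and 0.76 ± 0.19 (adjusted p = 0.00108) and changed in tumors by -0.60 ± 0.20 (adjusted p = 0.011) and -0.77 ± 0.19 (adjusted p = 0.000719). Without the fl/fl treated colon of replicate 4, the rises in fl/fl colon missed the threshold for Tnfrsf13b (adjusted p = 0.0788) and Tnfrsf13c (adjusted p = 0.0531). The same held in a fit on the compared groups alone (adjusted p = 0.0706 and 0.0635), and Tnfrsf13c missed the threshold with the squamous list as a covariate too (adjusted p = 0.0594). Tnfrsf17, which marks plasma cells, changed by 0.029 ± 0.17 and 0.024 ± 0.17 after AOM+DSS without passing the test. It fell in tumors, at -0.46 ± 0.18 (adjusted p = 0.0391) and -0.58 ± 0.18 (adjusted p = 0.00553). The fl/fl call was lost without that replicate 4 (adjusted p = 0.0647), under both other scalings (adjusted p = 0.0507 and 0.0636), with weighted arrays (adjusted p = 0.0608) and on the compared groups alone (adjusted p = 0.0623).

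B cell markers moved with these members. The mean of the 11 B cell genes ranged from 5.67 to 7.34 in untreated fl/fl, 5.85 to 7.28 in untreated knockout, 5.91 to 8.58 in treated fl/fl, 7.71 to 8.39 in treated knockout colon, 5.59 to 7.67 in fl/fl tumors and 5.67 to 6.61 in knockout tumors. After AOM+DSS 10 of the 11 rose in fl/fl and 11 in knockout colon, where 12.2% and 16% of all genes rose. All 11 fell in tumors of both genotypes, where 20.2% and 21.4% of all genes fell. As a description over the 57 samples, after each group's mean was taken off, Tnfrsf13c correlated with the B cell list at r = 0.89, Ltb with it at 0.82, Tnfrsf13b with the plasma cell list at 0.81 and Tnfrsf17 at 0.76. Tnfsf13b correlated with several lists alike: fibroblast at 0.62, regulatory T cell at 0.61, macrophage at 0.59 and T cell at 0.55. The points of each correlation share an array. The part of these cell types in the results was not tested.

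Costimulatory receptors of lymphocytes rose in treated colon, 4 of 6 in fl/fl and 6 of 6 in knockout mice, against 12.2% and 16% of all genes. The fl/fl calls of Tnfrsf9 and Tnfrsf18 were lost under some alternatives, as given below. In tumors these receptors parted ways. Tnfrsf8 (CD30), carried by activated lymphocytes, had the largest rise of any member in knockout colon. It ranged, as lowest, median and highest, over 5.79, 6.15 and 6.54 in untreated fl/fl, 5.80, 6.06 and 6.36 in untreated knockout, 6.72, 7.66 and 8.13 in treated fl/fl and 7.04, 7.96 and 8.98 in treated knockout colon. In tumors they were 6.47, 7.15 and 7.42 in fl/fl and 6.58, 7.01 and 7.99 in knockout mice. Treated and untreated colon did not overlap in either genotype. Tnfrsf8 rose by 1.46 ± 0.16 (2.75-fold, adjusted p = 3.1e-09) and 1.86 ± 0.16 (3.62-fold, adjusted p = 1.21e-12), and its change in tumors was -0.56 ± 0.17 (adjusted p = 0.00689) and -0.86 ± 0.17 (adjusted p = 2.19e-05). Cd27, a receptor of T cells and memory B cells, ran the same way. Its medians were 4.72, 4.87, 5.40, 5.66, 5.04 and 5.08 in the order untreated fl/fl and knockout, treated fl/fl and knockout, and tumors of fl/fl and knockout. It rose by 0.55 ± 0.12 (adjusted p = 0.00046) and 0.77 ± 0.12 (adjusted p = 7.44e-07) and changed in tumors by -0.37 ± 0.13 (adjusted p = 0.0138) and -0.60 ± 0.12 (adjusted p = 4.24e-05).

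The 4-1BB pair behaved otherwise in tumors. Tnfrsf9 (4-1BB), a receptor induced on activated T cells, had a lowest, median and highest level of 5.63, 6.38 and 6.85 in treated fl/fl and 6.15, 6.70 and 7.11 in treated knockout colon, and of 7.29, 7.82 and 8.08 in fl/fl and 7.54, 8.20 and 8.37 in knockout tumors. Untreated colon lay between 5.81 and 6.21 in fl/fl and between 5.93 and 6.21 in knockout mice. Every tumor exceeded every treated colon. Tnfrsf9 rose by 1.41 ± 0.13 (2.65-fold, adjusted p = 2.89e-14) in fl/fl and 1.36 ± 0.12 (2.57-fold, adjusted p = 2.92e-14) in knockout tumors. After AOM+DSS it rose by 0.37 ± 0.12 (adjusted p = 0.0175) in fl/fl and 0.57 ± 0.12 (adjusted p = 0.000125) in knockout colon. The fl/fl call was lost without the fl/fl treated colon of replicate 4 (adjusted p = 0.0506) or with the squamous list as a covariate (adjusted p = 0.0597). Its ligand Tnfsf9 changed by -0.0054 ± 0.12 and 0.23 ± 0.12 after AOM+DSS, passing in neither. In tumors Tnfsf9 rose by 1.29 ± 0.12 (2.45-fold, adjusted p = 2.14e-13) and 1.56 ± 0.12 (2.95-fold, adjusted p = 8.26e-17), from a range of 5.86 to 6.27 in treated fl/fl colon to 6.51 to 7.88 in fl/fl tumors and from 5.82 to 6.27 to 7.15 to 8.20 in knockout mice.

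Tnfsf18 (GITR ligand) was dim in colon and higher in tumors. Lowest, median and highest levels were 3.79, 3.95 and 5.00 in treated fl/fl and 3.73, 4.06 and 4.50 in treated knockout colon, against 4.78, 5.47 and 6.94 in fl/fl and 4.61, 5.16 and 6.61 in knockout tumors. The rise was 1.50 ± 0.18 (2.83-fold, adjusted p = 5.48e-10) in fl/fl and 1.30 ± 0.18 (2.46-fold, adjusted p = 1.08e-08) in knockout mice. Its receptor Tnfrsf18 rose after AOM+DSS by 0.22 ± 0.085 (adjusted p = 0.0495) in fl/fl and 0.37 ± 0.085 (adjusted p = 0.000441) in knockout colon and passed in neither tumor comparison. The fl/fl call was lost without the fl/fl treated colon of replicate 4 (adjusted p = 0.0778), the fl/fl tumor of replicate 3 (adjusted p = 0.0514) or the untreated knockout colon of replicate 2 (adjusted p = 0.0502). It was also lost with the squamous list as a covariate (adjusted p = 0.176), after a shift of each array to 1 median (adjusted p = 0.0813), on the compared groups alone (adjusted p = 0.0679) and with an intensity trend and robust eBayes (adjusted p = 0.0517). Tnfrsf4 (OX40) and its ligand Tnfsf4 rose in fl/fl tumors, by 0.46 ± 0.083 (adjusted p = 5.04e-06) and 0.37 ± 0.12 (adjusted p = 0.0104), and in treated knockout colon, by 0.29 ± 0.079 (adjusted p = 0.00314) and 0.33 ± 0.11 (adjusted p = 0.023). Cd40, the receptor through which T cells help B cells, rose by 0.29 ± 0.086 (adjusted p = 0.00658) in treated knockout colon and changed by -0.27 ± 0.088 (adjusted p = 0.00869) in knockout tumors. The T cell list mean ranged from 5.87 to 6.37 in untreated and 6.26 to 6.96 in treated fl/fl colon, and from 5.82 to 6.32 and 6.67 to 7.34 in knockout mice. In tumors it ranged from 6.11 to 6.86 and 6.08 to 6.80. Of its 10 genes, 6 and 9 rose after AOM+DSS, against 12.2% and 16% of all genes, and 2 and 7 fell in tumors, against 20.2% and 21.4%. The part of T cell number in these results was not tested.

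**Figure D3:**
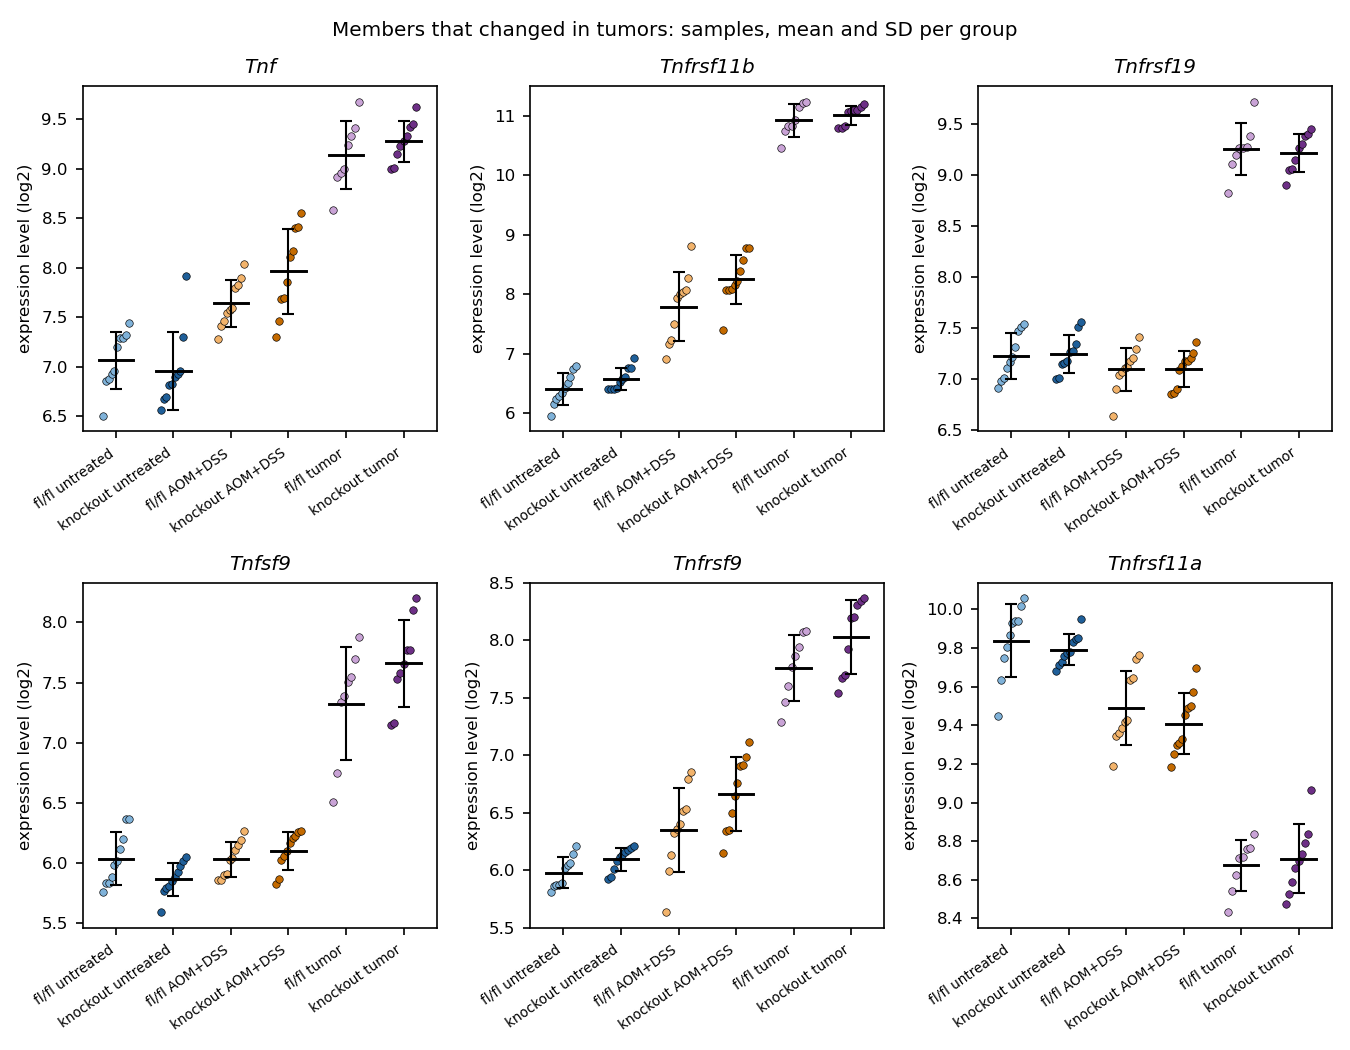
Log2 level per sample for Tnf, Tnfrsf11b, Tnfrsf19, Tnfsf9, Tnfrsf9 and Tnfrsf11a in the 6 groups, points sorted by value, with the mean and SD of each group. All tumors lie above all treated colons of the same genotype for the first 5 genes and below them for Tnfrsf11a.

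The death receptors, the TWEAK receptor and the decoy receptors form the next group, of which 5 of 8 rose and 2 fell in tumors of each genotype. Of all genes, 21% rose and 20.2% fell in fl/fl tumors, and 21.5% and 21.4% in knockout tumors. Among those that rose were Tnfrsf22, Tnfrsf23 and Tnfrsf26, whose probe sets may share signal and so may not count separately. Tnfrsf12a (the TWEAK receptor Fn14, known as an injury-induced receptor of epithelium) had a lowest, median and highest level of 7.57, 8.12 and 8.31 in treated fl/fl and 7.73, 7.97 and 8.25 in treated knockout colon. In tumors it stood at 8.84, 9.00 and 9.45 in fl/fl and 8.78, 9.13 and 9.39 in knockout mice, above all treated colons. It rose in tumors by 1.03 ± 0.12 (2.05-fold, adjusted p = 1.04e-10) and 1.12 ± 0.12 (2.17-fold, adjusted p = 2.88e-12). Its rise after AOM+DSS was 0.37 ± 0.11 (adjusted p = 0.0126) and 0.39 ± 0.11 (adjusted p = 0.00514), and both calls were lost with the squamous list as a covariate (adjusted p = 0.11 and 0.0506). Tnfrsf10b, the mouse TRAIL receptor, rose in tumors by 0.52 ± 0.13 (adjusted p = 0.000845) and 0.55 ± 0.13 (adjusted p = 0.000296). Its ligand Tnfsf10 (TRAIL) rose there by 0.63 ± 0.20 (adjusted p = 0.0087) and 0.55 ± 0.20 (adjusted p = 0.0185), with wide and overlapping ranges of 7.21 to 8.36 in treated and 7.76 to 8.97 in tumor samples of fl/fl mice.

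Fas and Tnfrsf21 (DR6), both death domain receptors, fell in tumors. Fas had a median of 7.89 in treated fl/fl colon and 7.41 in fl/fl tumors, and of 7.94 and 7.32 in knockout mice. Its change was -0.50 ± 0.12 (adjusted p = 0.000269) and -0.54 ± 0.11 (adjusted p = 5.37e-05), and the ranges overlapped. Tnfrsf21 ranged from 9.56 to 9.93 in treated and 9.18 to 9.45 in tumor samples of fl/fl mice, and from 9.48 to 9.87 and 8.66 to 9.47 in knockout mice, with no overlap in either. Its change was -0.30 ± 0.07 (adjusted p = 0.000345) and -0.47 ± 0.068 (adjusted p = 3.28e-08). Fasl, the ligand of Fas, was dim, with group means of 4.94 to 5.06. Tnfsf15 (TL1A) fell in knockout tumors at -0.27 ± 0.09 (adjusted p = 0.0101), and Tnfrsf25 (DR3), its receptor, fell in treated fl/fl colon at -0.17 ± 0.065 (adjusted p = 0.0495), a call lost without any 1 of the 3 arrays that stood apart (adjusted p = 0.0504 to 0.093), with the squamous list as a covariate (adjusted p = 0.177), on the compared groups alone (adjusted p = 0.0553) and with an intensity trend and robust eBayes (adjusted p = 0.0556).

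Tnfrsf23, a decoy TRAIL receptor without a signalling domain, rose at both steps. Its lowest, median and highest levels were 5.99, 6.59 and 7.12 in untreated fl/fl, 6.19, 6.51 and 7.78 in untreated knockout, 7.01, 7.60 and 8.64 in treated fl/fl and 7.31, 7.83 and 8.57 in treated knockout colon. They reached 8.62, 9.02 and 9.23 in fl/fl and 8.91, 9.23 and 9.65 in knockout tumors. The rise was 1.08 ± 0.16 (2.11-fold, adjusted p = 1.17e-06) and 1.28 ± 0.16 (2.43-fold, adjusted p = 6.77e-09) after AOM+DSS, and 1.35 ± 0.17 (2.55-fold, adjusted p = 1.33e-09) and 1.38 ± 0.16 (2.6-fold, adjusted p = 2.81e-10) in tumors. Its neighbour Tnfrsf22, another decoy, rose in tumors by 0.69 ± 0.086 (adjusted p = 1.29e-09) and 0.75 ± 0.084 (adjusted p = 4.55e-11) without overlap, and not after AOM+DSS. Tnfrsf26 rose by 0.43 ± 0.095 (adjusted p = 0.000271) in treated knockout colon and by 0.38 ± 0.10 (adjusted p = 0.00145) and 0.24 ± 0.10 (adjusted p = 0.0387) in tumors. The last call was lost with the squamous list as a covariate (adjusted p = 0.0928). The neutrophil list mean ranged from 5.32 to 5.63 in untreated fl/fl, 5.12 to 5.60 in untreated knockout, 5.49 to 7.96 in treated fl/fl, 5.73 to 7.99 in treated knockout colon, 6.11 to 8.22 in fl/fl tumors and 6.96 to 8.62 in knockout tumors. Within groups it correlated with Tnfrsf23 at r = 0.55, with Tnfrsf11b at 0.69, with Tnfrsf9 at 0.68 and with Tnf at 0.45 (57 samples, as a description), and its part in these results was not tested.

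The RANK axis held the largest change of the family. Osteoprotegerin (Tnfrsf11b) is a secreted decoy that binds RANK ligand (Tnfsf11) and keeps it from RANK (Tnfrsf11a), a receptor known in the intestine for the formation of M cells. Tnfrsf11b had a lowest, median and highest level of 5.95, 6.37 and 6.80 in untreated fl/fl, 6.40, 6.55 and 6.92 in untreated knockout, 6.91, 7.97 and 8.80 in treated fl/fl and 7.39, 8.19 and 8.77 in treated knockout colon. Tumors stood at 10.45, 10.87 and 11.23 in fl/fl and 10.79, 11.08 and 11.19 in knockout mice. No neighbouring groups along this course overlapped within a genotype. It rose after AOM+DSS by 1.39 ± 0.15 (2.62-fold, adjusted p = 1.08e-09) and 1.67 ± 0.15 (3.19-fold, adjusted p = 1.55e-12), and in tumors by 3.13 ± 0.16 (8.73-fold, adjusted p = 5.75e-24) and 2.76 ± 0.15 (6.76-fold, adjusted p = 3.39e-22).

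RANK itself went the other way. Tnfrsf11a ranged from 9.45 to 10.06 in untreated fl/fl, 9.68 to 9.95 in untreated knockout, 9.19 to 9.76 in treated fl/fl and 9.19 to 9.70 in treated knockout colon, and from 8.43 to 8.84 in fl/fl and 8.47 to 9.07 in knockout tumors. All tumors lay below all treated colons of their genotype. Its change was -0.35 ± 0.072 (adjusted p = 0.000261) and -0.38 ± 0.072 (adjusted p = 2.92e-05) after AOM+DSS, and -0.82 ± 0.077 (1.76-fold lower, adjusted p = 1.47e-13) and -0.70 ± 0.074 (1.63-fold lower, adjusted p = 7.01e-12) in tumors. Tnfsf11 rose after AOM+DSS by 0.49 ± 0.14 (adjusted p = 0.00758) and 0.59 ± 0.14 (adjusted p = 0.000659) and changed by -0.048 and -0.21 in tumors without passing. The list of mature colonocyte genes fell with RANK: its mean was 12.24 and 12.15 in untreated, 11.72 and 11.46 in treated colon and 9.39 and 9.33 in tumors, and all 9 genes fell in tumors of both genotypes. The broader epithelial list moved less, from 11.50 and 11.45 in treated colon to 11.37 and 11.25 in tumors, and all 10 smooth muscle genes fell there too. Of all genes, 20.2% fell in fl/fl and 21.4% in knockout tumors. Within groups, Tnfrsf11a correlated more with the broader epithelial list (r = 0.52) than with the mature colonocyte list (0.23) or the smooth muscle list (0.15), as a description. The part of tissue makeup in the RANK result was not tested.

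Tnfrsf19 (TROY), an orphan receptor known as a Wnt target in intestinal stem cells, separated tumors from colon with little spread. Lowest, median and highest levels were 6.91, 7.19 and 7.53 in untreated fl/fl, 7.00, 7.22 and 7.55 in untreated knockout, 6.64, 7.11 and 7.41 in treated fl/fl and 6.85, 7.15 and 7.36 in treated knockout colon, against 8.82, 9.26 and 9.72 in fl/fl and 8.90, 9.27 and 9.45 in knockout tumors. The change after AOM+DSS was -0.13 (adjusted p = 0.321) and -0.14 (adjusted p = 0.252). In tumors it rose by 2.16 ± 0.10 (4.47-fold, adjusted p = 1.49e-26) and 2.12 ± 0.094 (4.35-fold, adjusted p = 7.03e-27), which gave it the smallest adjusted p of the family in both genotypes. The 12 Wnt target genes listed all rose in tumors of both genotypes, from a mean of 7.46 and 7.50 in treated colon to 10.21 and 10.27. Of all genes, 21% and 21.5% rose there. Within groups Tnfrsf19 correlated with the mean of the 12 at r = 0.52, as a description. The CTTTGAT match shown above lies upstream of one of the starts of Tnfrsf19, a match that 3.38% of genes have. The part of Wnt signalling in the Tnfrsf19 result was not tested. Edar, the ectodysplasin receptor of hair and tooth development, passed in none of the 4 comparisons. Its ligand Eda fell in knockout tumors at -0.26 ± 0.11 (adjusted p = 0.0391), and the call was lost after a shift of each array to 1 median (adjusted p = 0.114) or a further quantile normalization (adjusted p = 0.173), on the compared groups alone (adjusted p = 0.0666) and with the squamous list as a covariate (adjusted p = 0.0739).

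Between genotypes, the family differed little in untreated colon and in tumors, and 1 member passed in treated colon. In untreated colon no member passed limma's adjusted or unadjusted test, where 0.00451% of all genes passed after adjustment and 5.02% at an unadjusted p under 0.05. The differences, knockout minus fl/fl, ranged from -0.23 for Tnfsf4 (± 0.11, unadjusted p = 0.0502) to 0.35 for Tnfsf10 (± 0.19). In treated colon Tnfsf8 (CD30 ligand) was higher in knockout mice, by 0.39 ± 0.091 (adjusted p = 0.0331), where 0.419% of all genes were called higher and 0.541% in either direction. Its lowest, median and highest levels were 4.57, 4.85 and 5.05 in fl/fl and 4.82, 5.22 and 5.64 in knockout colon, and 7 of 10 knockout samples lay above the highest fl/fl sample. Tnfsf8 is 1 of the dim members. In a fit on the compared groups alone its adjusted p was 0.126, and the other alternatives that tested it gave 0.00616 to 0.0464.

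A further 12 members had an unadjusted p under 0.05 in treated colon, which makes 13 of 41 against 13.1% of all genes, and each was higher in knockout mice. They were Tnfrsf18 (0.31 ± 0.085, adjusted p = 0.0604), Ltb (0.56 ± 0.16, 0.0767), Tnfrsf1b (0.30 ± 0.095, 0.11), Tnfrsf11b (0.46 ± 0.15, 0.121), Tnfrsf26 (0.28 ± 0.095, 0.127), Tnfrsf13c (0.39 ± 0.14, 0.183), Cd40 (0.23 ± 0.086, 0.194), Tnfrsf9, Tnfsf13b, Tnf, Tnfrsf4 and Cd27. The difference was above 0 in 36 of 41 members, with a median of 0.10 against -0.0011 over all genes. This result depends on 1 array. Without the fl/fl treated colon of replicate 4, 8 members passed: Tnfsf8 (0.42, adjusted p = 0.00616), Ltb (0.66, 0.00872), Tnfrsf11b (0.57, 0.0132), Tnfrsf18 (0.32, 0.0249), Tnfrsf26 (0.34, 0.0265), Tnfrsf13c (0.48, 0.0405), Tnfrsf1b (0.33, 0.0429) and Cd40 (0.28, 0.0462). Over all genes, that setting called 589 higher and 227 lower, in place of 93 and 27. The fit on the compared groups alone, with that array kept, called 0 higher and 2 lower. The array was singled out after its values were seen, as the highest of the lower group for many members, so leaving it out widens these differences by construction and the 8 are not independent support. The B cell list mean was 7.38 ± 0.68 in fl/fl and 8.03 ± 0.24 in knockout treated colon (SD, n = 10 each). Of its 11 genes, 10 had an unadjusted p under 0.05 and none passed the adjusted threshold. Other list means were higher in knockout colon too, at 6.63 and 6.96 for T cells, 9.03 and 9.27 for macrophages and 6.65 and 7.14 for neutrophils. The mature colonocyte mean was lower, at 11.72 and 11.46. Within groups, Tnfsf8 correlated with the T cell list at r = 0.57 and with the B cell list at 0.34, as a description. The part of these lists in the difference was not tested.

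In tumors no member passed the adjusted test, and 0.00902% of all genes did. Tnfsf9 (0.33 ± 0.13, p = 0.0102) and Tnfrsf9 (0.27 ± 0.13, p = 0.0423) had an unadjusted limma p under 0.05, both with an adjusted p of 1, where 4.46% of all genes had one. Whether the genotypes responded differently was tested as an interaction. No member passed for the response to AOM+DSS (6 of 41 at an unadjusted p under 0.05, against 6.09% of all genes) or for the tumor response (5 of 41, against 6.63%), and neither did any gene. Tnfsf8 had the smallest p for AOM+DSS, with a difference of 0.47 ± 0.13 between responses (adjusted p = 0.651). For tumors the differences were -0.60 ± 0.24 for Ltb (adjusted p = 0.643), -0.53 ± 0.20 for Tnfsf13b (adjusted p = 0.621) and -0.33 ± 0.12 for Tnfrsf4 (adjusted p = 0.561). So members called in 1 genotype and not in the other, such as Ltb in tumors, were not shown to differ between genotypes.

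**Figure D4:**
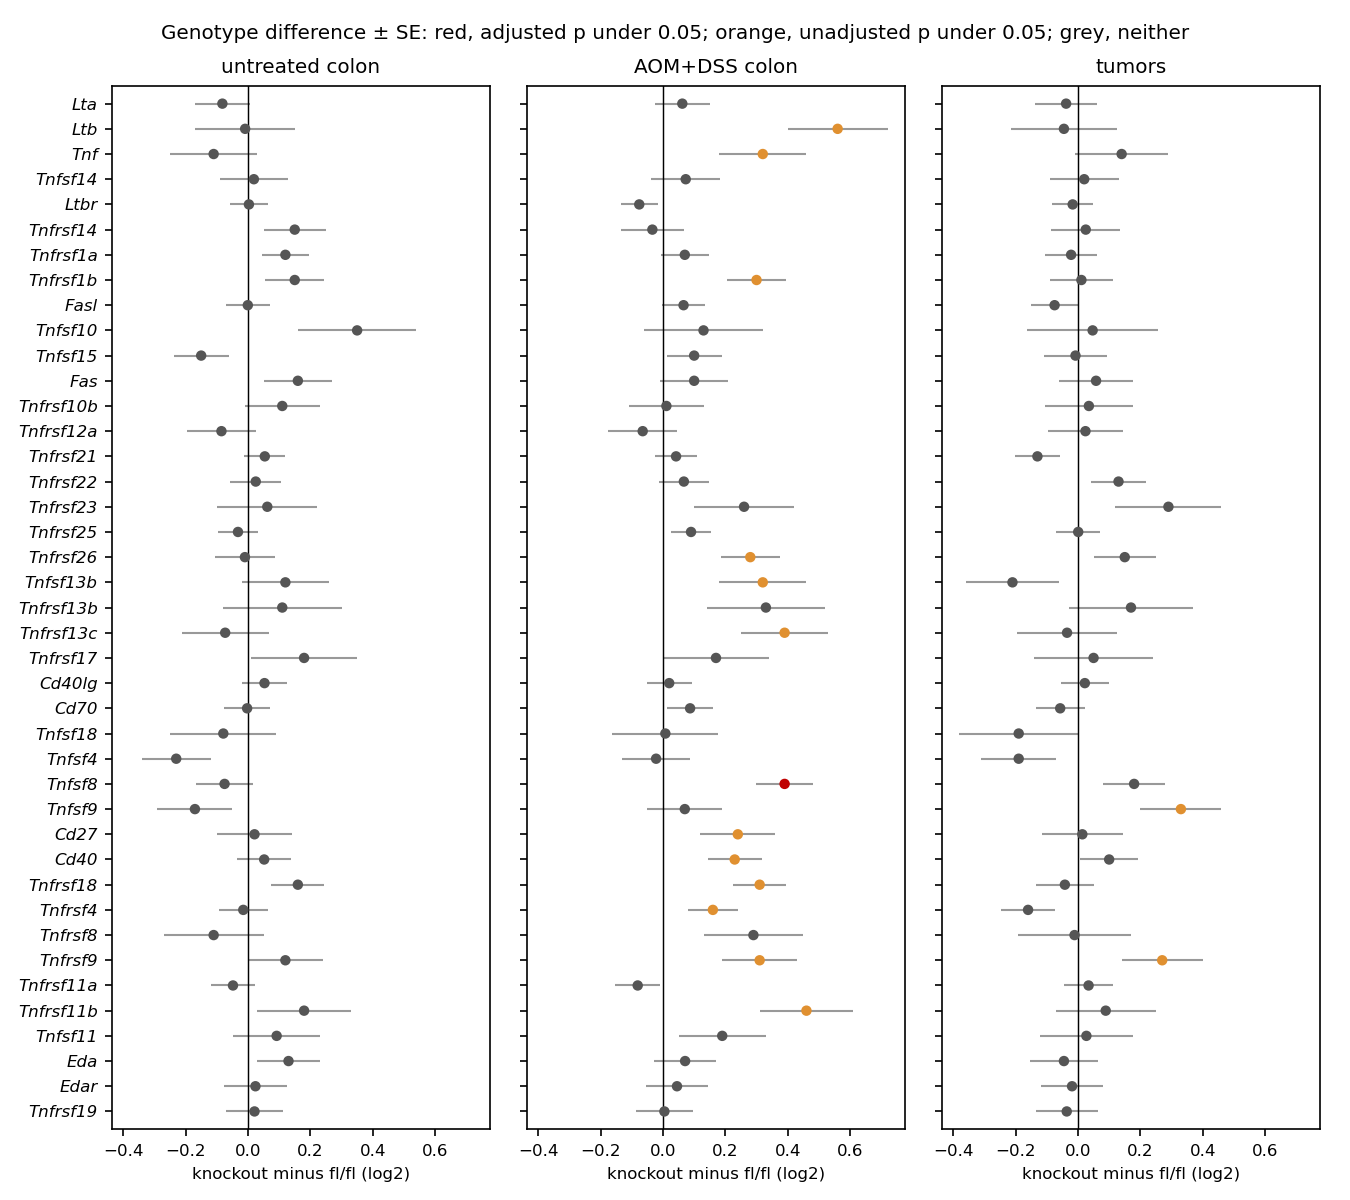
Difference in log2 level, knockout minus fl/fl, with its SE for each member in untreated colon, treated colon and tumors. Tnfsf8 in treated colon is the only point past the adjusted threshold, and 36 of 41 differences in treated colon lie above 0.

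Ligands and receptors that bind each other were then compared across samples, after each group's mean was taken off so that group differences do not enter. Of 18 such pairs, 6 passed (100000 permutations, two-sided, adjusted over the 18 pairs), each with r above 0. The 18 were a chosen set, and other pairs that bind, such as Tnfsf13b with Tnfrsf17 and those of Lta, were not tested. Tnf and Tnfrsf1b were the closest, with r = 0.55 (adjusted permutation p = 0.00054), rho = 0.57 (adjusted p = 0.0009), an r of 0.51 without the 2 samples whose Tnf lay farthest from the median, and a positive r in all 6 groups (0.13 to 0.79). Tnfsf13b and Tnfrsf13b gave r = 0.50 (adjusted p = 0.0027) and rho = 0.46 (adjusted p = 0.00666), with an r of 0.50 without the farthest samples and -0.15 to 0.77 within groups. Eda and Edar gave r = 0.46 (adjusted p = 0.0027) and rho = 0.42 (adjusted p = 0.00954), with an r of 0.48 without the farthest samples and 0.01 to 0.70 within groups. The calls of these 3 pairs on r held under the 8 alternatives run. Members that do not bind each other were not paired for comparison, and the part of cell content in the pair correlations was not tested.

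The other pairs that passed were less firm. Tnfsf13b and Tnfrsf13c gave r = 0.39 (adjusted p = 0.0143) and rho = 0.36 (adjusted p = 0.0387), with group values from -0.52 to 0.81, and lost the call without the fl/fl treated colon of replicate 4 (adjusted p = 0.0606). Tnf and Tnfrsf1a gave r = 0.38 (adjusted p = 0.0143) and rho = 0.28 (adjusted p = 0.117), with r = 0.26 without the farthest samples. The call of this pair on r held under the 8 alternatives, with a highest adjusted permutation p of 0.0458, but its rho did not pass. Tnfsf11 and Tnfrsf11b gave r = 0.39 (adjusted p = 0.0216) and rho = 0.31 (adjusted p = 0.11), with r = 0.29 without the farthest samples, and lost the call without the same replicate 4 (adjusted p = 0.0988). The other 12 pairs did not pass. Among them were Tnfsf9 and Tnfrsf9, which rose together in tumors but had r = 0.25 within groups (adjusted p = 0.218; rho = 0.24, adjusted p = 0.232; r = 0.15 without the farthest samples), and Tnfsf8 and Tnfrsf8, at r = -0.03 (adjusted p = 0.947; rho = -0.01, adjusted p = 0.92; r = -0.03 without the farthest samples).

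**Figure D5:**
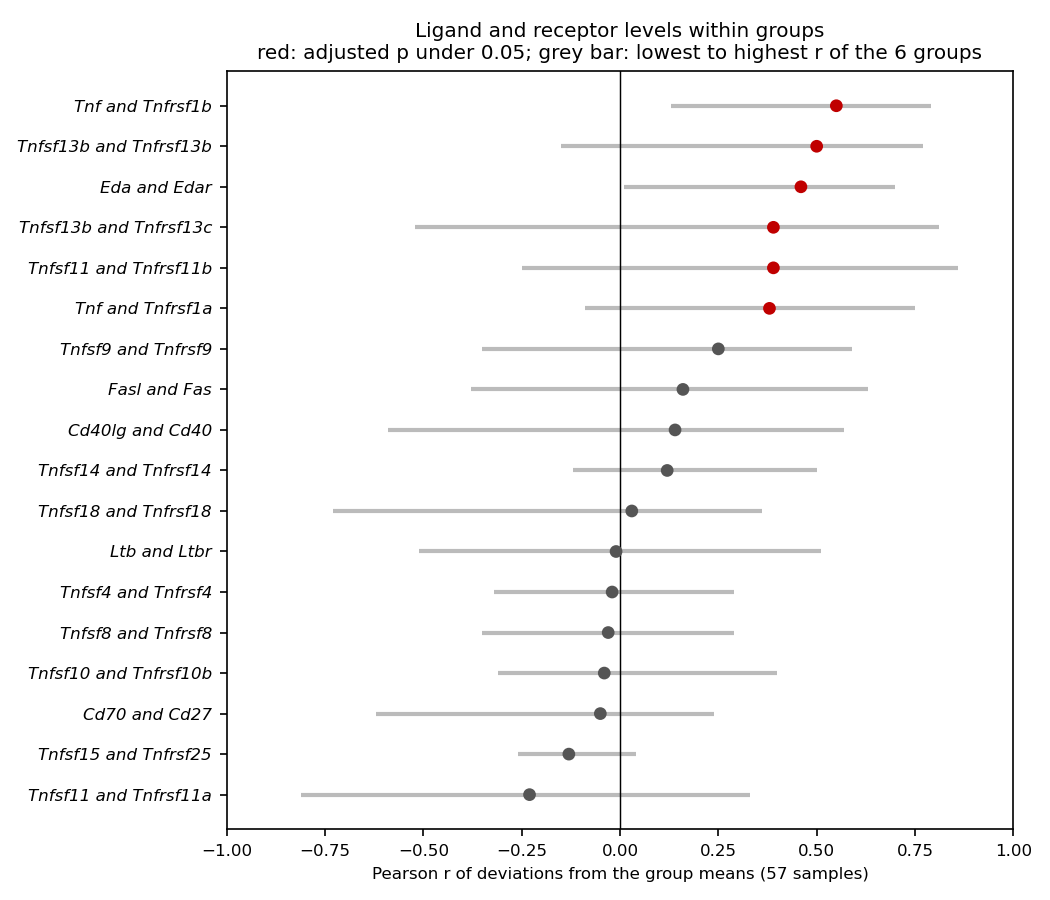
Pearson r between the ligand and the receptor of each tested pair over 57 samples after the mean of each group was taken off (points), with the lowest and highest r within any 1 group (grey bars). Tnf with Tnfrsf1b has the highest r at 0.55, and 6 of 18 pairs passed after adjustment.

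The signalling genes downstream of the receptors, together with 5 genes for shedding and processing, made a list of 43. Of these, 14 rose and 1 fell after AOM+DSS in fl/fl colon, and 21 rose and 5 fell in knockout colon, against the shares of all genes given above for each direction. In tumors 18 rose and 3 fell in fl/fl mice, against 21% and 20.2% of all genes. In knockout tumors 19 rose and 6 fell, against 21.5% and 21.4%. Rel, the NF-kappaB subunit of lymphocytes, rose by 0.81 ± 0.12 (adjusted p = 2.35e-06) in fl/fl and 1.29 ± 0.12 (adjusted p = 9.1e-12) in knockout treated colon. Nfkbie, an inhibitor of NF-kappaB that is also its target, rose by 0.53 ± 0.12 (adjusted p = 0.000565) and 0.76 ± 0.12 (adjusted p = 5.85e-07). Mlkl and Ripk3, the effector and the kinase of necroptosis, rose by 0.54 ± 0.11 and 0.38 ± 0.11 in fl/fl and 0.49 ± 0.11 and 0.48 ± 0.11 in knockout treated colon. In tumors the adaptor Traf4 rose by 0.86 ± 0.10 (adjusted p = 7.08e-11) and 1.03 ± 0.10 (adjusted p = 9.15e-14), whereas Tradd, the adaptor of TNFR1, changed by -0.71 ± 0.09 (adjusted p = 2.17e-09) and -0.61 ± 0.088 (adjusted p = 3.24e-08). Nfkb2, which serves the alternative pathway of the lymphotoxin and BAFF receptors, rose in tumors by 0.62 ± 0.078 and 0.42 ± 0.075. None of the 43 passed between genotypes in untreated colon, treated colon or tumors by limma. An unadjusted p under 0.05 was met by 4, 13 and 0 of the 43, against 5.02%, 13.1% and 4.46% of all genes.

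The 5 shedding and processing genes of that list are proteases and their partners, which release ligands and receptors from the cell surface or process them. All 5 rose in tumors of both genotypes, where 21% of all genes rose in fl/fl and 21.5% in knockout mice. After AOM+DSS 2 of 5 rose in each, against 12.2% and 16% of all genes. Adam10 rose by 0.24 ± 0.045 and 0.39 ± 0.045 after AOM+DSS and by 0.59 ± 0.048 (adjusted p = 8.47e-16) and 0.55 ± 0.046 (adjusted p = 4.09e-15) in tumors. Rhbdf2 (iRhom2), which brings the TNF-shedding enzyme to the surface, rose in tumors by 0.69 ± 0.092 and 0.57 ± 0.089. Of 8 genes of lymphoid tissue, among them targets of lymphotoxin, 7 rose after AOM+DSS in each genotype. In tumors 1 rose and 4 fell in fl/fl mice, where Ltb did not pass, and 1 rose and 6 fell in knockout mice. Of all genes, 20.2% and 21.4% fell in these tumor comparisons. Vcam1, an adhesion molecule of stroma and vessels, rose by 1.34 ± 0.15 (adjusted p = 2.84e-09) and 1.61 ± 0.15 (adjusted p = 4.05e-12), and Cxcr5, which guides B cells into follicles, changed in tumors by -1.02 ± 0.18 (adjusted p = 3.8e-06) and -1.63 ± 0.17 (adjusted p = 1.11e-11). Of these 8, Ccr7 passed between genotypes, at 0.52 ± 0.12 higher in knockout treated colon (adjusted p = 0.0303). Family receptors whose symbols fall outside the rule were few. Of Relt, Ngfr and Eda2r, Relt rose by 0.38 ± 0.081 in treated knockout colon (adjusted p = 0.000167), and Eda2r rose in tumors by 0.83 ± 0.16 (adjusted p = 1.19e-05) and 0.47 ± 0.15 (adjusted p = 0.008).

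Many members lie side by side in the genome. By gene order in GRCm38.p6, 21 of the 41 had another member beside them or 1 gene away, in 8 runs. In the run of Ltb, Tnf and Lta, Tnf rose in tumors of both genotypes, Lta fell in both, and Ltb fell in knockout tumors. In the run of Tnfrsf1b and Tnfrsf8, both rose after AOM+DSS, and then Tnfrsf1b rose and Tnfrsf8 fell in tumors of both genotypes. In the run of Tnfsf9, Cd70 and Tnfsf14, Tnfsf9 alone rose in tumors. In the run of Tnfrsf26, Tnfrsf22 and Tnfrsf23, all 3 rose in tumors of both genotypes. These 4 runs were chosen after their values were seen.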

How the data were processed

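RNA of 57 distal colon and tumor samples (250 ng, mirVana extraction, WT Plus labelling, per the labels' protocols) was measured on Affymetrix whole-transcript arrays. The authors deposited log2 expression per probe set. RMA, named in the submitters' processing notes without a version, corrects background and equalizes the distributions of the arrays, which hides array-wide shifts and compresses changes of dim genes. The table holds 41345 probe sets, of which 23521 carry 1 gene symbol. Probe sets with several symbols (1814) or none (16010) were not used, and the brightest set per gene left 22180 genes. Array medians lay between 5.923 and 6.039. Arrays have no read depth, and their number limits the precision.

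Groups came from sample titles. limma 3.58.1 in R 4.3.3 (lmFit, contrasts.fit, eBayes) fitted 6 group means over all 57 arrays with 51 residual degrees of freedom, two-sided, with Benjamini-Hochberg adjustment and a threshold of 0.05, and was checked on simulated data. Correlation p-values came from permutations within groups in numpy 2.4.6, with ranks and adjustment by scipy 1.17.1. The members and lists were chosen with earlier results of these data known. Members given in full were up to 8 with the largest rise or fall per comparison, or the 3 with the smallest p where none passed, and up to 3 genes per list. Alternatives were scaling, filtering, probe set averaging, robust eBayes, compared groups alone, array weights, a replicate block, a squamous covariate and an array left out. Leaving out the fl/fl treated colon of replicate 4 or the fl/fl tumor of replicate 3 was chosen after seeing the data.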

Additional observations from a re-analysis of the deposited data

Results flagged for a closer look

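Within groups of 8 to 10 samples, 11 of 150 sets of values, over the 25 members described in full, had a sample far from the others by Dixon's criterion, which chance alone meets in about 1 of 20 sets. In untreated fl/fl colon, Tnfsf10 stood at 8.22 in replicate 4, against 6.91 to 7.47 in the others. In untreated knockout colon, Fas was 8.58 in replicate 5 (7.38 to 7.95 in the others), Tnfrsf23 was 7.78 in replicate 2 (6.19 to 6.96) and Tnfsf8 was 4.24 in replicate 1 (4.75 to 4.97). In treated fl/fl colon, replicate 4 was high for Tnfrsf23 at 8.64 (7.01 to 7.80) and for Tnfsf18 at 5.00 (3.79 to 4.35), replicate 6 was high for Tnfrsf17 at 7.07 (5.31 to 6.17), and replicate 1 was low for Tnfrsf8 at 6.72 (7.45 to 8.13). In treated knockout colon, Tnfrsf11b was 7.39 in replicate 2 (8.07 to 8.77). In tumors, Tnfrsf13c was 7.67 in the fl/fl tumor of replicate 3 (6.47 to 6.95), and Tnfrsf8 was 7.99 in the knockout tumor of replicate 2 (6.58 to 7.14).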

How the results depend on the processing

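No result reversed under any alternative run. The number of members called was 16 after AOM+DSS in fl/fl colon (11 to 18 over the alternatives), 22 in knockout colon (20 to 24), 27 in fl/fl tumors (25 to 27) and 29 in knockout tumors (27 to 29). Of these calls, 10 of 16, 20 of 22, 24 of 27 and 27 of 29 passed in every alternative that tested the gene. For the list of 43 signalling, shedding and processing genes the counts were 15 (11 to 17), 26 (24 to 28), 21 (20 to 23) and 25 (22 to 27).

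Between genotypes in treated colon, the members' count was 1 member in the reported fit, 0 on the compared groups alone, 4 with array weights (Tnfsf8, Ltb, Tnfrsf18 and Tnfrsf26), 2 with the squamous covariate (Tnfsf8 and Tnfrsf18) and 8 without the fl/fl treated colon of replicate 4. With the lowest 25% of genes removed it was 1, but the member was Tnfrsf18 (0.31, adjusted p = 0.0467), since Tnfsf8 was not tested there. The list of 43 gave 0 in the reported fit, 1 with array weights and 3 without that replicate 4. The cause of these shifts was not tested, beyond the choice of replicate 4 noted above.

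Replicate numbers gave no clear pairing of the samples. After group means were taken off, same-numbered samples of untreated and treated colon correlated above 0.1 in 3 of 10 fl/fl and 1 of 10 knockout pairs. Between treated colon and tumors the counts were 1 of 8 and 3 of 9. Between genotypes they were 5 of 10, 4 of 10 and 5 of 8 in untreated colon, treated colon and tumors. The median r between genotypes was 0.104, 0.082 and 0.132, so some variation shared by number was not excluded. In no comparison did more than 2 samples correlate best with their own number. Over all genes, the replicate block called 142 higher and 46 lower between genotypes in treated colon, in place of 93 and 27. With the replicate number as a block, the count between genotypes in treated colon remained 1, Tnfrsf18 after AOM+DSS in fl/fl colon missed the threshold (adjusted p = 0.0533), and so did the correlation of Tnfsf13b with Tnfrsf13c (adjusted p = 0.118). The correlation of Tnfsf11 with Tnfrsf11b also missed it after a shift of each array to 1 median (adjusted p = 0.0535) and a further quantile normalization (adjusted p = 0.0706).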
